A study of Homo sapiens with 6 samples.

Results

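The keratins and vimentin are the intermediate filament genes examined here. They are VIM (vimentin), the type II keratins KRT7, KRT8, KRT80, KRT81 and KRT86, and the type I keratins KRT18 and KRT19. The 8 genes were taken by name from the 67130 genes of the table, on the chromosomes and not on alternative contigs. They were chosen by earlier results of the same contrast in the same 6 samples, so their levels and differences are given as a description, without a test. The cells were hTERT-RPE1-TOShOFD1, a line derived from hTERT-immortalized human retinal pigment epithelial cells (RPE1), which carries a lentivirus-delivered hairpin against OFD1 that doxycycline (DOX) switches on. The 3 control samples were kept without DOX, and the 3 OFD1-depleted samples were given DOX at 200 ng/mL, both for 72 h. All 6 samples carried the hairpin, and 0 samples received DOX without it, so DOX itself and the loss of OFD1 cannot be told apart.

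Intermediate filaments are rope-like polymers that give cells resistance to stretch. Keratin filaments form only from pairs of 1 type I and 1 type II chain, and KRT8 with KRT18 is the usual pair of simple epithelia, which include the retinal pigment epithelium. KRT7 and KRT19 are partners of simple and ductal epithelia, KRT80 is a keratin of many epithelia with a role that is less well known, and KRT81 and KRT86 are hard keratins of the hair cortex. Vimentin, a type III protein, polymerizes with itself and is typical of mesenchymal cells and of many epithelial cells in culture.

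By the coordinates of the table (GRCh38), 6 of the members lie on chromosome 12. They are KRT80 (ENSG00000167767) from 52168996 to 52192014, KRT7 (ENSG00000135480) from 52232520 to 52252186, KRT86 (ENSG00000170442) from 52249300 to 52309163, KRT81 (ENSG00000205426) from 52285913 to 52291534, KRT8 (ENSG00000170421) from 52897187 to 52949954 and KRT18 (ENSG00000111057) from 52948871 to 52952906. VIM (ENSG00000026025) lies on chromosome 10 from 17228241 to 17237593, and KRT19 (ENSG00000171345) on chromosome 17 from 41523617 to 41528308.

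The genes of the family share a coiled-coil rod, and a stretch near the end of the rod is alike in many of them. The 30 coding bases of that stretch are shown because they let the similarity between members be seen. Capitals mark the 16 of 30 bases that were the same in all 8 members, and all are given 5′ to 3′ on the coding strand, from the canonical transcripts of GENCODE version 44 (GRCh38).
VIM, chr10:17235355-17235384, plus strand, exon 7 of 10: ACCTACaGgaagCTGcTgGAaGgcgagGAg
KRT8, chr12:52898684-52898713, minus strand, exon 6 of 8: ACCTACaGgaagCTGcTgGAgGgcgagGAg
KRT18, chr12:52952305-52952334, plus strand, exon 6 of 7: ACCTACcGccgcCTGcTgGAaGatggcGAg
KRT7, chr12:52245598-52245627, plus strand, exon 7 of 9: ACCTACcGcaagCTGcTgGAgGgcgagGAg
KRT19, chr17:41523782-41523811, minus strand, exon 6 of 6: ACCTACcGcagcCTGcTcGAgGgacagGAa
KRT80, chr12:52172203-52172232, minus strand, exon 7 of 9: ACCTACaGgaagCTGgTgGAgGgcgagGAg
KRT81, chr12:52287107-52287136, minus strand, exon 7 of 9: ACCTACaGgcgcCTGcTgGAgGgcgagGAg
KRT86, chr12:52306246-52306275, plus strand, exon 9 of 11: ACCTACaGgcgcCTGcTgGAgGgcgagGAg
The window was located with an amino acid pattern that was loosened 3 times until every member matched. The 4 patterns tried were matched by 5, 6, 7 and 8 of the 8 members in turn, by 25, 27, 40 and 40 of 48 other keratin genes, and by 4, 4, 8 and 12 of 19794 other coding genes. That all members hold the window therefore follows from how the pattern was set and is not a result. Within it KRT81 and KRT86 differed at 0 bases, VIM and KRT8 at 1 base, and KRT18 and KRT80 at 11 bases.

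The members spanned a wide range of levels. FPKM, the deposited unit, scales fragments to transcript length and to the size of the library, so levels of different genes can be set side by side. VIM was the highest member in both groups, and its rank among all genes was between 5 and 6 in control and between 9 and 12 in OFD1-depleted samples. KRT8 and KRT18 followed, then KRT80 and KRT7, KRT81, KRT86 and KRT19. This order of group means was the same in control and OFD1-depleted samples. In control, KRT80 and KRT7 did not differ beyond their spread, at 21.3 ± 0.932 and 20.8 ± 0.660 FPKM (SD, n = 3). After OFD1 depletion KRT8 was above KRT18 and KRT7 was above KRT81 within each of the 3 samples, although the ranges over samples overlapped for both pairs.

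**Figure D1:**
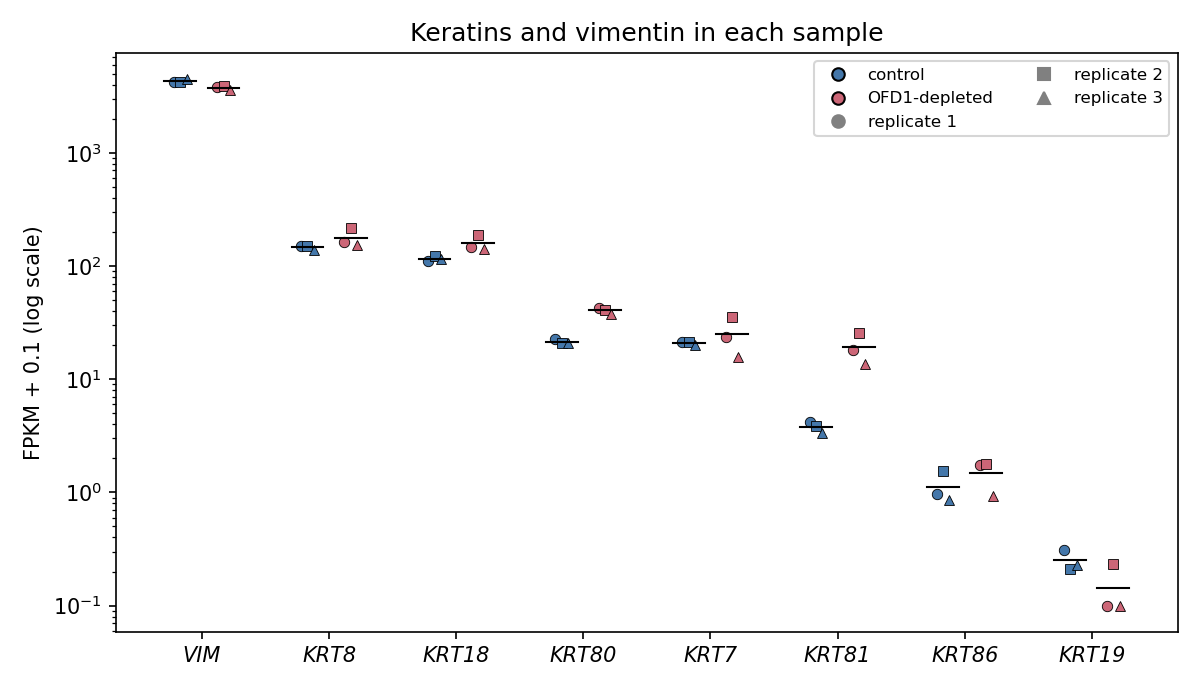
FPKM plus 0.1 on a log axis for each member in the 3 control and 3 OFD1-depleted samples, with symbols for replicates and a line at each group mean. KRT81 and KRT80 are higher in every OFD1-depleted sample than in any control sample, whereas the samples of KRT7, KRT86 and KRT19 overlap.

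KRT81 showed the largest difference of the members. Its levels were 4.10, 3.75 and 3.27 FPKM in control samples and 17.9, 25.7 and 13.6 FPKM after OFD1 depletion. The groups did not overlap, and the lowest OFD1-depleted sample was well above the highest control. The means were 3.71 ± 0.418 and 19.1 ± 6.16 FPKM (SD, n = 3 per group), a log2 difference of 2.29 (SE 0.21). Only 5 of the 12025 genes compared had a larger rise on this scale, where 0.1 was added to each value before the logarithm. Across the alternatives tried the log2 difference of KRT81 lay between 1.99 and 2.51.

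KRT80 was the next highest in difference. It had 22.4, 20.8 and 20.7 FPKM in control samples and 42.7, 41.1 and 37.4 FPKM after OFD1 depletion. All OFD1-depleted samples lay above all control samples, and the spread within each group was small beside the gap. The log2 difference was 0.92 (SE 0.12), and it ranked 191 among all genes compared. It lay between 0.77 and 0.97 across the alternatives.

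KRT8 and KRT18, the main simple epithelial pair, were higher by less. KRT18 had 111.4, 122.6 and 114.8 FPKM in control samples and 147.9, 189.2 and 140.9 FPKM after OFD1 depletion, a log2 difference of 0.44 (SE 0.14). KRT8 had 150.8, 148.9 and 139.6 FPKM in control samples and 161.4, 218.2 and 153.2 FPKM after OFD1 depletion, a log2 difference of 0.26 (SE 0.15). In FPKM neither gene's groups overlapped, but for both the gap rested on small margins, and replicate 2 of the OFD1-depleted samples was the highest. Without that replicate the log2 difference was 0.31 for KRT18 and 0.10 for KRT8. Scaled to TPM, so that each sample has the same total, it was 0.30 for KRT18 and 0.11 for KRT8. The FPKM of all genes summed to between 408302 and 414547 in control samples. In OFD1-depleted samples the sum was between 433262 and 493510, highest in replicate 2.

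KRT7 and KRT86 did not separate the groups. KRT7 had 21.3, 21.1 and 20.1 FPKM in control samples and 23.5, 35.7 and 15.8 FPKM after OFD1 depletion. One OFD1-depleted sample was therefore below every control and the other two were above. Its log2 difference of 0.18 (SE 0.23) was -0.11 without OFD1-depleted replicate 2 and 0.47 without OFD1-depleted replicate 3. KRT86 had 0.870, 1.44 and 0.753 FPKM in control samples and 1.66, 1.68 and 0.824 FPKM after OFD1 depletion, a log2 difference of 0.39 (SE 0.35). KRT19 was listed at 0.211, 0.111 and 0.130 FPKM in control and at 0, 0.133 and 0 FPKM in OFD1-depleted samples, so it was below the minimum mean of 1 FPKM and entered no comparison.

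VIM was lower in each OFD1-depleted sample than in any control. It had 4213, 4192 and 4458 FPKM in control samples and 3821, 3882 and 3588 FPKM after OFD1 depletion, and the log2 difference was -0.19 (SE 0.16). The depleted mean was 87.8% of the control mean. The log2 difference of VIM was -0.34 after scaling to TPM and -0.62 after quantile normalization. TPM moved the median of all genes by -0.15, and relative to that shift the value of VIM did not move.

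Of the 8 members, 7 passed the filter on low values, and 2 of those, KRT80 and KRT81, passed an adjusted p of 0.05 in limma, both higher. Of all genes compared, 17.0% passed in either direction, 5.07% higher and 11.9% lower. The groups did not overlap for 5 of the 7 members compared, against 36.1% of all genes compared. The members were chosen on this contrast, so nothing is read from these counts. The count depends on the setting, since KRT18 also passed under 5 of its alternatives (array weights, median-of-ratios scaling, quantile normalization, the replicate block and without OFD1-depleted replicate 2), and VIM passed under 1, quantile normalization. The median log2 difference of the 7 members was 0.39, and that of all genes compared was -0.03.

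**Figure D2:**
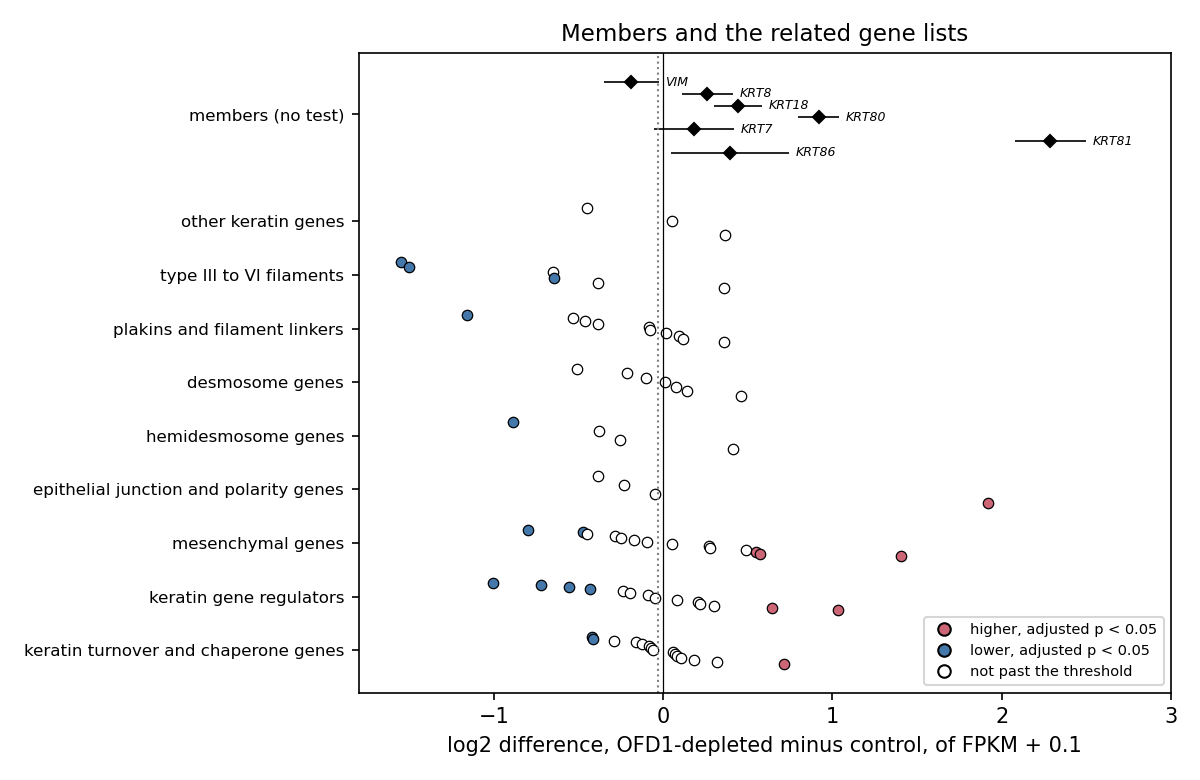
Log2 difference between OFD1-depleted and control samples for the members (diamonds, bars show the SE, no test) and for the measured genes of 9 related lists (circles, filled where the adjusted p was under 0.05). The dotted line is the median of all genes; KRT81 lies furthest to the right, and LMNB1, NES and TCHP lie furthest to the left.

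The ratios between members within each sample do not depend on the scaling of the sample. KRT18 to KRT8 was 0.739, 0.823 and 0.823 in control and 0.916, 0.867 and 0.920 in OFD1-depleted samples, and the groups did not overlap. KRT80 to KRT8 was 0.146 ± 0.0049 in control and 0.232 ± 0.0394 in OFD1-depleted samples, and KRT81 to KRT8 was 0.0253 ± 0.0019 and 0.106 ± 0.0152 (SD, n = 3 per group). KRT7 to KRT8 overlapped between groups. Sums were taken over the member keratins only, so KRT10, KRT15, KRT34 and the other keratins are left out. The sum of type I members over that of type II members was 0.603 ± 0.0375 in control and 0.608 ± 0.0269 in OFD1-depleted samples. KRT8 and KRT18 together held 84.8% ± 0.464 of the summed level of the member keratins in control and 79.7% ± 1.52 in OFD1-depleted samples. KRT81 held 1.20% ± 0.115 and 4.44% ± 0.639 of it. VIM was 13.9 ± 0.915 times the sum of the member keratins in control and 9.06 ± 1.28 times in OFD1-depleted samples.

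**Figure D3:**
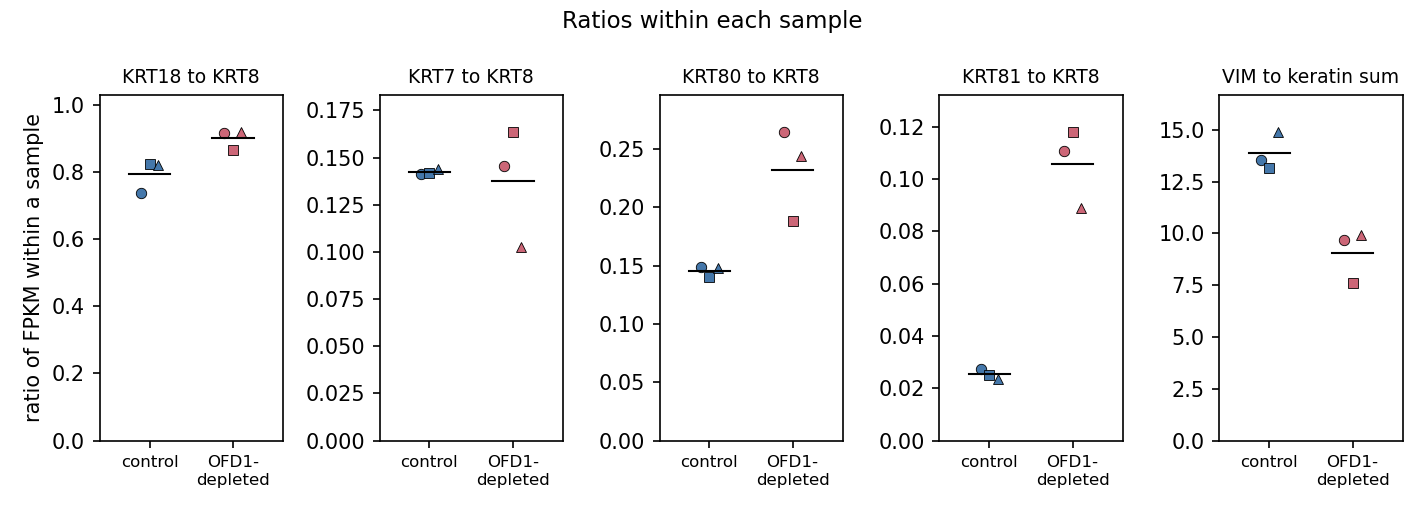
Ratios of FPKM within each sample, by group, with a line at each mean and symbols for replicates; each axis starts at 0. KRT80 and KRT81 relative to KRT8 were higher in every OFD1-depleted sample, and VIM relative to the sum of the member keratins was lower.

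OFD1-depleted replicate 2 stood above the other two in several keratins. Its log2 level minus the mean of replicates 1 and 3 was 0.89 for KRT7, 0.72 for KRT81, 0.47 for KRT8 and 0.39 for KRT18, but 0.04 for KRT80 and 0.07 for VIM. Over all genes compared the median of this value was -0.08, with 5th and 95th percentiles of -0.72 and 0.68. KRT7 and KRT81 thus lay above the 95th percentile. KRT86 was at 0.48, and KRT19, near 0 in all samples and listed at 0 in the other two, was at 1.22.

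KRT81 lies within the span of KRT86 on chromosome 12, on the opposite strand and with no exon bases in common, and their sequences are close. The coding sequences were 90.1% identical, and 605 consecutive bases were the same. Of the 50-base windows of the KRT81 transcript, 38.4% were also found in KRT86, and 32.8% of the KRT86 windows were found in KRT81. The 2 coding sequences were aligned over 1519 columns, 65 of them gaps, and only windows of 30 bases without a gap were searched. Among these the window that differed most, at 13 bases (capitals), is shown, and it lies in the last exon of each gene.
KRT81, chr12:52286403-52286432, minus strand: AgtGAcTGGcagTgtcTgCagcgCTccGTg
KRT86, chr12:52308468-52308497, plus strand: TgtCTcCACcagAgtcAgTagcgTCccCAg
How reads shared by both genes were divided is not given in the sources used here, so the values of each are uncertain. With KRT81 and KRT86 summed over their lengths the log2 difference was 1.99. The KRT81 level was 3.89 ± 1.13 times that of KRT86 in control and 14.2 ± 3.04 times after OFD1 depletion (SD, n = 3 per group).

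KRT8 and KRT18 have many processed pseudogenes, and 39.2% and 35.3% of their 50-base windows were found in transcripts of other genes. This share was 0% for VIM, 1.08% for KRT7, 44.6% for KRT81 and 39.9% for KRT86. Of 51 KRT8 pseudogenes, 1 reached a mean of 1 FPKM. This was KRT8P12, at 3.99 ± 0.234 FPKM in control samples and 3.31 ± 0.552 FPKM after OFD1 depletion (limma adjusted p = 0.32). Only pseudogenes named after a member, KRT83 or KRT87 were searched. Among these the next highest were KRT8P3 and KRT87P, an unprocessed pseudogene near KRT7, with means of 0.572 and 0.527 FPKM. The summed KRT8 pseudogene level was between 4.49 and 5.54 FPKM in all samples, and that of the 67 KRT18 pseudogenes was at most 0.692 FPKM. Adding the pseudogenes gave log2 differences of 0.25 for KRT8 and 0.44 for KRT18.

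The largest fall next to a member was in VIM-AS1, a long noncoding RNA on the strand opposite to VIM. It had 17.8, 16.7 and 23.4 FPKM in control samples and 1.37, 1.89 and 1.50 FPKM after OFD1 depletion, a log2 difference of -3.52 (SE 0.18, limma adjusted p = 5.0e-06). VIM-AS1 shares 656 exon bases with VIM, which are 30.9% of its exon length. It was 0.448% ± 0.0678 of the VIM level in control and 0.0421% ± 0.0063 after OFD1 depletion (SD, n = 3 per group). The libraries were made with a kit that marks strand, but the strand setting of the counting is not given in the sources used here, so reads in the shared part cannot be assigned with certainty, while the rest of VIM-AS1 has no exon bases of VIM. The fall of VIM-AS1 passed the threshold under all 16 alternatives. AL133415.1, which has 619 exon bases opposite VIM, was between 0.024 and 0.182 FPKM in all samples.

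**Figure D4:**
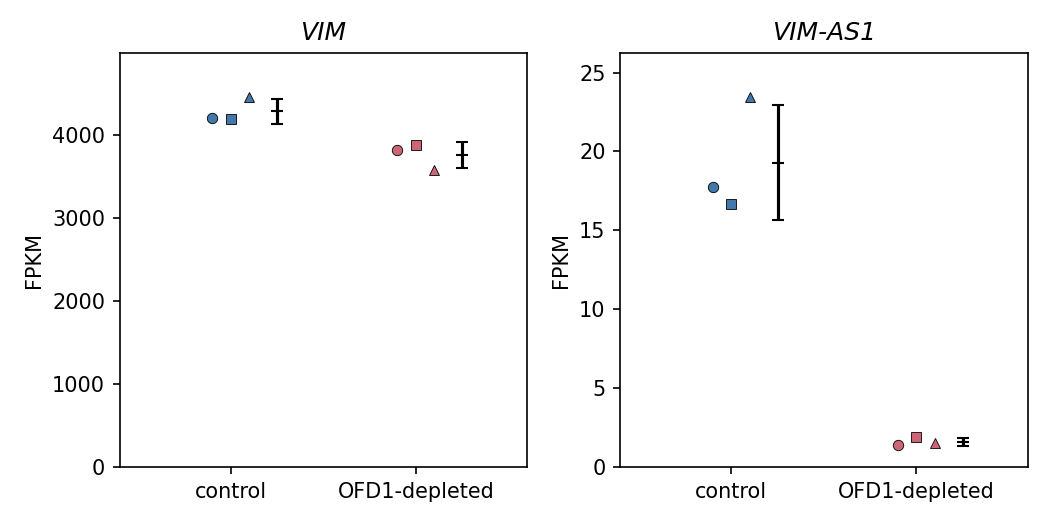
FPKM of VIM and VIM-AS1 in each sample with the mean and SD beside the points; both axes start at 0. VIM-AS1 falls from between 16.7 and 23.4 to between 1.37 and 1.89 FPKM, while VIM ranges from 3588 to 4458 FPKM.

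Other genes that overlap members by position were low. KRT87P had 0.292 ± 0.112 FPKM in control samples and 0.761 ± 0.267 FPKM after OFD1 depletion. KRT7-AS and LINC00592 were below 0.6 FPKM in every sample, and AC121757.1, AC021066.1 and AC021066.3 were listed at 0 throughout. AC021066.2 and AC121757.2 did not exceed 0.106 FPKM. KRT8 and KRT18 overlap head to head, with 525 exon bases in common on opposite strands, 17.1% of the exon bases of KRT18. Since the strand setting of the counting is not given, reads there could count for either gene, and the levels and the ratio of the pair are uncertain to that extent.

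The rest of the keratin family was mostly at or near 0. Of 48 other protein-coding keratin genes, 3 reached a mean of 1 FPKM and 26 were listed at 0 in all samples. KRT10, a keratin of differentiating epidermis, had 10.9 ± 1.08 FPKM in control samples and 14.5 ± 5.08 FPKM after OFD1 depletion (limma adjusted p = 0.27). KRT15, a basal keratin, had 3.43 ± 0.460 and 2.55 ± 0.744 FPKM (adjusted p = 0.22), and KRT34, a type I hair keratin, had 2.60 ± 0.543 and 2.75 ± 0.875 FPKM (adjusted p = 0.92). None of the 3 passed limma's threshold and none had an unadjusted p under 0.05. In the chromosome 12 cluster, 27 genes over 784 kb, the 6 that reached 1 FPKM lay at the ends of the cluster. Between them, 17 genes were listed at 0. The 6 were all members, but the members were chosen with results of these samples known, so nothing is read from that. Of 15 other hair keratins of both types, 1 reached a mean of 1 FPKM (KRT34), and KRT32 was the next highest, at 0.962 and 0.836 FPKM.

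**Figure D5:**
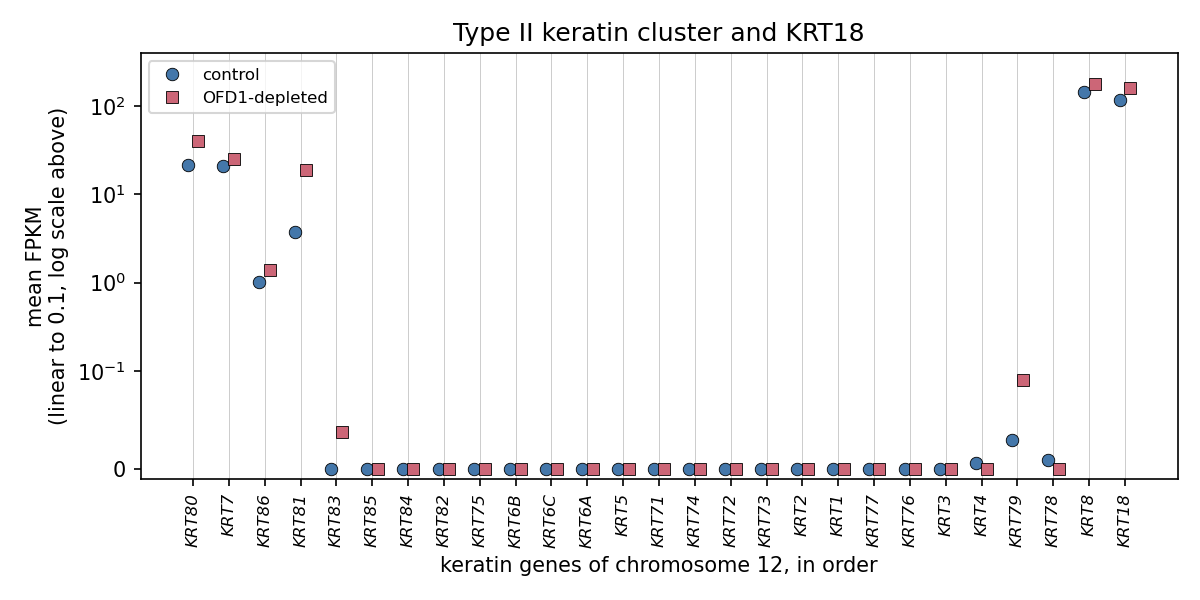
Mean FPKM in control (circles) and OFD1-depleted (squares) samples for the 27 keratin genes of chromosome 12 in order; the axis is linear to 0.1 and logarithmic above. KRT80, KRT7, KRT86 and KRT81 at one end and KRT8 and KRT18 at the other are the genes above 1 FPKM.

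Other intermediate filament genes fell or did not pass the test. Of 14 genes of types III to VI, 6 were measured, 3 fell and 0 rose. LMNB1, a lamin of the nuclear lamina, fell from 29.0 ± 2.67 to 9.87 ± 1.17 FPKM (limma adjusted p = 4.3e-05). NES, the filament nestin of progenitor cells, fell from 7.78 ± 1.05 to 2.69 ± 0.409 FPKM (adjusted p = 0.00017). LMNB2, another lamin, fell from 37.1 ± 1.89 to 24.0 ± 4.38 FPKM (adjusted p = 0.014). That call was lost without control replicate 1, without control replicate 3 and without the filter on low values (highest adjusted p over alternatives 0.078). LMNA, the most abundant of the list, had 575 ± 51.3 and 445 ± 80.2 FPKM (adjusted p = 0.13). The list's median log2 difference was -0.65.

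Genes that link filaments to other structures were mostly not called. Of 32 such genes, 21 were measured and 2 fell. Most of all genes compared were not called either, since 17% of them passed in either direction. TCHP, which encodes trichoplein, a protein that binds keratin filaments and also sits at centrioles, fell from 7.24 ± 0.760 to 3.19 ± 0.298 FPKM (limma adjusted p = 0.00048). ITGA6, an integrin of the hemidesmosome, fell from 11.4 ± 0.376 to 6.24 ± 1.45 FPKM (adjusted p = 0.0056), which without the filter on low values was 0.058. SPTAN1 (64.4 and 47.0 FPKM, adjusted p = 0.059) and PLEC, which encodes plectin (49.4 and 33.6 FPKM, adjusted p = 0.078), did not pass. CD151 and LAMB3 were the highest hemidesmosome genes, at 478 ± 61.8 and 406 ± 94.4 FPKM and at 20.4 ± 1.56 and 15.7 ± 1.80 FPKM (adjusted p = 0.38 and 0.077). None of the 7 desmosome genes measured passed limma's threshold, 1 of them (PKP2) had an unadjusted p under 0.05, and JUP and PERP were the highest, at 52.4 and 30.9 FPKM in control. The median log2 difference over the 21 genes was -0.09.

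Most epithelial junction genes were below the minimum level, and mesenchymal genes moved in both directions. Of 20 epithelial junction and polarity genes, 4 were measured, and CLDN1, a claudin of tight junctions, rose from 0.729 ± 0.190 to 3.01 ± 0.481 FPKM (limma adjusted p = 0.00052). SPINT2 and TJP1 were the most abundant, and CDH1 was at most 0.0213 FPKM in either group mean. Of 15 mesenchymal genes, 14 were measured, 3 rose and 2 fell. ACTA2, smooth muscle actin, rose from 238 ± 21.6 to 632 ± 85.7 FPKM (adjusted p = 0.0001). SPARC, a matrix protein, rose from 525 ± 49.6 to 777 ± 21.7 FPKM (adjusted p = 0.017), and TAGLN, an actin-binding protein, from 228 ± 16.0 to 338 ± 75.0 FPKM (adjusted p = 0.042). ZEB2, a transcription factor of the mesenchymal state, fell from 6.82 ± 0.244 to 3.90 ± 0.459 FPKM (adjusted p = 0.0042), and CDH2, N-cadherin, from 74.9 ± 4.65 to 54.2 ± 7.68 FPKM (adjusted p = 0.039). FN1, fibronectin, had 1765 ± 383 and 1656 ± 397 FPKM (adjusted p = 0.81). The calls of SPARC, TAGLN and CDH2 were lost without control replicate 1, without control replicate 3 and without OFD1-depleted replicate 1, and those of TAGLN and CDH2 also without control replicate 2. CDH2 also lost its call with median-of-ratios scaling and quantile normalization, SPARC with quantile normalization and TAGLN with TPM. Without the filter on low values all 3 calls were lost, and without the variance trend those of TAGLN and CDH2. The highest adjusted p over the alternatives was 0.14 for SPARC, 0.19 for TAGLN and 0.16 for CDH2, and no direction reversed. The medians of the log2 difference were -0.14 for the epithelial list and -0.02 for the mesenchymal list.

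Of 22 genes that regulate keratin genes, 14 were measured, 2 rose and 4 fell. TFAP2A, the AP-2 alpha transcription factor, rose from 7.91 ± 0.623 to 16.3 ± 1.56 FPKM (limma adjusted p = 0.00042), and KLF5 rose from 5.25 ± 0.332 to 8.40 ± 1.86 FPKM (adjusted p = 0.03). KLF6 fell from 22.6 ± 2.23 to 11.3 ± 1.64 FPKM (adjusted p = 0.00087), and FOSL1, an AP-1 subunit and the most abundant of the list, fell from 180 ± 13.1 to 109 ± 7.17 FPKM (adjusted p = 0.0026). JUN, another AP-1 subunit, fell from 37.0 ± 2.38 to 27.4 ± 2.87 FPKM (adjusted p = 0.041), and SP3 from 9.07 ± 0.784 to 6.19 ± 1.27 FPKM (adjusted p = 0.044). CEBPB, the second most abundant, had 34.6 ± 1.62 and 40.4 ± 5.32 FPKM (adjusted p = 0.30). The calls of KLF5, JUN and SP3 were lost without each control replicate in turn and without OFD1-depleted replicate 3. KLF5 also lost its call with TPM and without OFD1-depleted replicate 1, and SP3 without OFD1-depleted replicate 2. Without the filter on low values, and without the variance trend, all of these calls were lost. Their highest adjusted p over the alternatives was 0.13, 0.17 and 0.16. The list's median log2 difference was -0.07.

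Of 16 genes of keratin turnover and folding, 15 were measured, 1 rose and 2 fell. CRYAB, a small heat shock protein that binds filaments, rose from 6.18 ± 1.45 to 10.1 ± 1.55 FPKM (limma adjusted p = 0.023). DNAJB1 fell from 56.2 ± 4.75 to 42.1 ± 0.706 FPKM (adjusted p = 0.038), and YWHAH, a 14-3-3 protein, from 102 ± 10.5 to 75.5 ± 2.99 FPKM (adjusted p = 0.042). HSPB1 and YWHAZ were the most abundant and did not pass. All 3 calls were lost without control replicate 1, without control replicate 3 and without OFD1-depleted replicate 3. The calls of DNAJB1 and YWHAH were also lost without control replicate 2 and without OFD1-depleted replicate 1, that of YWHAH with median-of-ratios scaling and that of CRYAB with TPM. Without the filter on low values all 3 calls were lost, and without the variance trend those of DNAJB1 and YWHAH. The highest adjusted p over the alternatives was 0.13, 0.13 and 0.11. The list's median log2 difference was -0.06.

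The genes whose profile over the 6 samples was most like that of a member were found by the root mean square difference of centred log2 values. For VIM they were ERGIC1, CNOT10 and DNAJB11, with differences of 0.024 to 0.032. For KRT18 they were TIMM44, GNG5 and RPL7P9, at 0.023 to 0.040. For KRT81 they were LINC02762, C5orf46 and AC011352.3, at 0.31 to 0.34. These genes were selected for their likeness, so their levels are a description only. The measure is not scaled to the size of a gene's change, so its values for KRT81 are not comparable with those for VIM and KRT18.

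The promoter sequences of 2 members, VIM and KRT8, were in the RefSeq table used (GRCh38.p14, from 250 bases before the start to 50 after it). Of 4 motifs searched on both strands, the GC box (GGGCGG) was found 1 time in VIM, and the TATA box (TATAAA), the AP-1 site (TGANTCA) and the CCAAT box were not found, nor was any of the 4 in KRT8. Of 34796 promoters, 44.9% held the GC box, 11.6% the TATA box, 7.73% the AP-1 site and 34.6% the CCAAT box. The coding sequences also differ in composition, with 34 cysteine codons of 505 in KRT81 and 29 of 486 in KRT86, 9 in KRT80 and at most 1 in the other members.

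The samples were also checked for the target gene and for markers of cell types. OFD1, the target, had 3.47 ± 0.144 FPKM in control samples and 0.996 ± 0.375 FPKM after OFD1 depletion (SD, n = 3 per group, limma adjusted p = 0.00085). Of 14 retinal pigment epithelium markers, 3 reached 1 FPKM (MITF, OTX2 and RDH5), and the defining genes RPE65 (0.0113 and 0.166 FPKM), TTR and DCT were at or near 0. The list's summed level was 12.6 to 14.7 FPKM in control and 15.0 to 17.5 FPKM in OFD1-depleted samples. The highest sum was that of OFD1-depleted replicate 2, where BEST1, a channel of this epithelium, had 4.33 FPKM, against at most 0.0475 FPKM in the other samples. Without BEST1 the sums were 12.5 to 14.7 FPKM in control and 13.1 to 15.1 FPKM in OFD1-depleted samples. None of 14 photoreceptor and neuron markers reached 1 FPKM, 7 were listed at 0, and NRL and CNGA1 were the highest, with means of 0.181 and 0.126 FPKM. Of 5 keratinocyte markers, KRT10 was the highest, and KRT1, KRT5 and KRT14 were listed at 0. The 15 hair keratins summed to between 3.17 and 5.14 FPKM over all samples. The share of FPKM from mitochondrial genes was 11.8% ± 2.79 in control and 17.1% ± 1.97 in OFD1-depleted samples, and its part in the results was not tested. In bulk samples, fewer cells of a type and less RNA per cell cannot be told apart.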

How the data were processed

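RNA was measured in 6 samples of 1 cell line, 3 in each group. The study calls the samples biological replicates, but the sources used here do not say whether they came from separate cultures, so p-values measure only the spread between these samples. Per the methods and the labels, the authors aligned 150-base paired-end reads with HISAT2 (version 2.0.5) to GRCh38 (Ensembl version 94) and deposited FPKM from StringTie. The table holds no counts, so the depth is unknown. Coordinates of all 8 members matched GENCODE version 44. The 6464 genes on alternative contigs were dropped. The 12025 genes whose mean reached 1 FPKM were compared with limma 3.58.1 (R 4.3.3) with a variance trend, on log2(FPKM + 0.1), two-sided, with Benjamini-Hochberg adjustment over all of them. A fold change on this scale understates the change of low genes. The procedure was tested on simulated data. The members and lists were chosen with earlier results of these data known. Named genes were, in each list, up to 5 past the threshold and the 2 most abundant, all genes overlapping a member, the highest pseudogenes and the nearest profiles. SP3, PKP2, CDH1 and BEST1 fall outside this rule and were chosen after their values were seen. The cell type markers RPE65, TTR, DCT, OTX2, KRT1, KRT5 and KRT14 also fall outside it and were named with their values known. The rod-end window was set by trying 4 patterns, and 4 promoter motifs were searched. Sequences were compared with Biopython. Other keratins were limited to protein-coding genes.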

Additional observations from a re-analysis of the deposited data

How the results depend on the processing

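The same-numbered samples of the 2 groups correlated at 0.058, 0.048 and 0.011 in their deviations from the group means. The labels do not say whether samples with the same number were paired, and these values cannot decide it. With a replicate block, 2296 genes were called in place of 2039, and the filament linker list had 4 calls in place of 2. Leaving out 1 sample at a time gave 1111 to 2818 calls over all genes (1111 without control replicate 3, 1155 without control replicate 1), 2 to 4 in the type III to VI filaments, 2 to 4 in the linkers, 1 in the epithelial genes, 2 to 7 in the mesenchymal genes, 3 to 6 in the regulators, 0 to 5 in the turnover genes and 0 in the other keratins. With array weights there were 3956 calls over all genes, 5 in the type III to VI filaments, 8 in the linkers, 2 in the epithelial genes and 5 in the turnover genes. Without a filter there were 1083, and 1 in the linkers, 2 in the mesenchymal genes, 3 in the regulators and 0 in the turnover genes. Without a variance trend there were 3 mesenchymal, 3 regulator and 1 turnover calls. Quantile normalization gave 5 filament calls, 4 lower and 1 higher. TPM gave 5 linker and 2 epithelial calls, and a minimum of 5 FPKM gave 0 epithelial calls, since CLDN1 was then not compared. The causes of the other changes were not tested. The share of calls that were higher was 29.9%, and 11.8% with TPM, 45.5% with quantile normalization and 39.4% with median-of-ratios scaling. Of 115 member values under alternatives, 111 moved by less than the spread between replicates and 0 reversed a called value. The other 4 were VIM and KRT80 with TPM (-0.34 and 0.77), VIM with quantile normalization (-0.62) and KRT86 summed with KRT81 (1.99). Changing the filter or the variance trend, or adding the replicate block, left every member value as it was by construction. Those values say nothing on stability. Only KRT80 and KRT81 were called, so only they could reverse a called value. KRT7 changed sign under 2 alternatives, array weights (-0.08) and without OFD1-depleted replicate 2 (-0.11). FPKM without counts gives no counting interval, and 3 samples against 3 cannot give an exact permutation p under 0.1.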
